A study of Arabidopsis thaliana with 72 samples.

Results

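Methyl jasmonate (MJ) is the volatile methyl ester of jasmonic acid, which plants take up and use as a source of the hormone. Its effect after 3 h was read from 4 of the 72 ATH1 arrays of the series, the 2 arrays of seedlings given 10 µM MJ and the 2 arrays of mock-treated seedlings. Arrays were chosen by the genotype, treatment, time and set letter in their labels (Col-0, 3 h, set A3). All 4 come from whole Col-0 seedlings of Arabidopsis thaliana, the wild type, 7 days old and grown at 22 °C. The set holds 8 groups of 2 arrays, and its other groups received at 1 µM the auxin IAA, the cytokinin zeatin or the gibberellin GA3, at 10 µM abscisic acid (ABA) or ACC, from which ethylene is made, or at 10 nM the brassinosteroid brassinolide (BL). All 16 arrays of the set shared the estimate of the spread. Whether replicate arrays stem from separate cultures is not in the labels, so p-values cover only array-to-array spread, possibly technical. Because whole seedlings were extracted, fewer cells of a type and less RNA per cell cannot be told apart.

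Jasmonic acid is made from a fatty acid of chloroplast membranes and is active as its conjugate with isoleucine. The conjugate joins the receptor COI1 to JAZ repressor proteins, the repressors are degraded, and MYC transcription factors are freed to act on defence genes. The pathway is best known for the response to wounding and to chewing insects, with more glucosinolates, lectins, thionins and anthocyanins, and for slower growth of shoots and roots. Jasmonate also raises genes for its own synthesis and its own breakdown.

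The compared arrays resembled their set in overall level and in correlation within groups, but MJ and mock differed in how their replicates differed. The 2% trimmed mean of the deposited signals was 1056 on every replicate 1 array of the set except that of ACC (1163) and 887.2 on every replicate 2 array, so the deposited scaling went with the replicate number. All arrays were scaled here to 971.4. Log2 levels correlated across probe sets at 0.955 between the MJ arrays and at 0.96 between the mock arrays, inside the 0.952 to 0.960 found for all groups of the set. The difference between replicates 1 and 2 correlated across probe sets at 0.0949 between MJ and mock. It correlated at 0.376 to 0.469 among ABA, MJ, ACC and BL, and at 0.354 to 0.428 among mock, IAA, zeatin and GA3. Between these groupings the range was 0.0487 to 0.248, and MJ and mock stood in different ones. The cause of this was not tested. With the mean of ACC and BL at 3 h as the comparator in place of mock, 480 of the 481 rises given below kept their direction. Of the 319 falls 317 did, and 451 rises and 265 falls were called. The same MJ arrays picked these probe sets and enter both comparisons, so these counts give no independent support. Of all 15962 tested probe sets, 714 were called higher and 671 lower under MJ than under ACC and BL. Green tissue markers (3 of 21 listed had a named probe set) summed to scaled signals of 51400 and 87490 on MJ arrays 1 and 2 and of 79220 and 79850 on the mock arrays, and the 16 arrays ranged from 41460 to 87490. Root hair markers (2 of 12) summed to 3207 and 1511 under MJ, to 1581 and 1454 under mock and to 1188 to 3827 over the set. The trichome gene TRY (1 of 7 flower and trichome markers) had signals of 59.4 and 24.1 under MJ and of 155.2 and 126.0 under mock, inside 24.1 to 214.5 for the set, and was too dim to be tested. None of 6 seed storage markers had a named probe set. MJ array 1 was thus low in green tissue markers and high in root hair markers, no tested marker of these lists was called, and their part in the changes below was not tested.

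After 3 h of MJ, 481 probe sets were higher than under mock and 319 were lower, and the rises were larger than the falls. Of 15962 tested probe sets, the rises were 3.01% and the falls 2%, by limma with Benjamini-Hochberg adjustment at 0.05. The median rise was 1.59 on the log2 scale and the median fall was -1.05, beside a median change of -0.09 over all tested probe sets. Of the rises, 383 were at least 2-fold (79.6%), 159 at least 4-fold, 70 at least 8-fold and 30 at least 16-fold. Of the falls, 176 were at least 2-fold (55.2%), 19 at least 4-fold and 3 at least 8-fold, and none reached 16-fold. Both MJ arrays lay above both mock arrays at all 481 rises, against 2358 of all tested probe sets (14.8%), and below them at all 319 falls, against 4392 (27.5%). Within each replicate number, MJ thus lay on the called side of mock at every called probe set. That rises outnumbered falls depended on the fit. With the replicate number as a block 694 rose and 730 fell. In the fit over 72 arrays, which takes in the mutants, the numbers were 668 and 688. They were 607 and 587 over 48 Col-0 arrays, and 714 and 671 against ACC and BL. At 2-fold or more the rises were the larger number in these 4 fits as well (441 and 268, 436 and 248, 412 and 228, 483 and 326).

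Part of the rises began from low signals. Both mock arrays lay under their own 40th percentile at 75 of the rises, and 32 rises passed the filter on dim probe sets through the MJ arrays alone, among them JAL23, AT1G76640, AT4G17470, AT1G54020, JRG21, CML38 and THI2.1. Such probe sets could pass only by being high under MJ. Both MJ arrays were under that percentile at 42 of the falls. The median mock level on the log2 scale was 9.78 for rises, 10.60 for falls and 9.58 for all tested probe sets. The number of falls depended more on single arrays than the number of rises. Falls numbered 98 without mock replicate 1, 167 without mock replicate 2, 150 without MJ replicate 1 and 212 without MJ replicate 2, and the rises numbered 320, 358, 304 and 328 in the same order. Rises made up 60.1% of the calls. The share was 73.3% with array medians subtracted (517 rises and 188 falls) and 72.7% on the deposited scale (317 and 119), but 48.7% with the replicate block, 49.3% over 72 arrays, 50.8% over 48 arrays and 51.6% against ACC and BL.

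**Figure D1:**
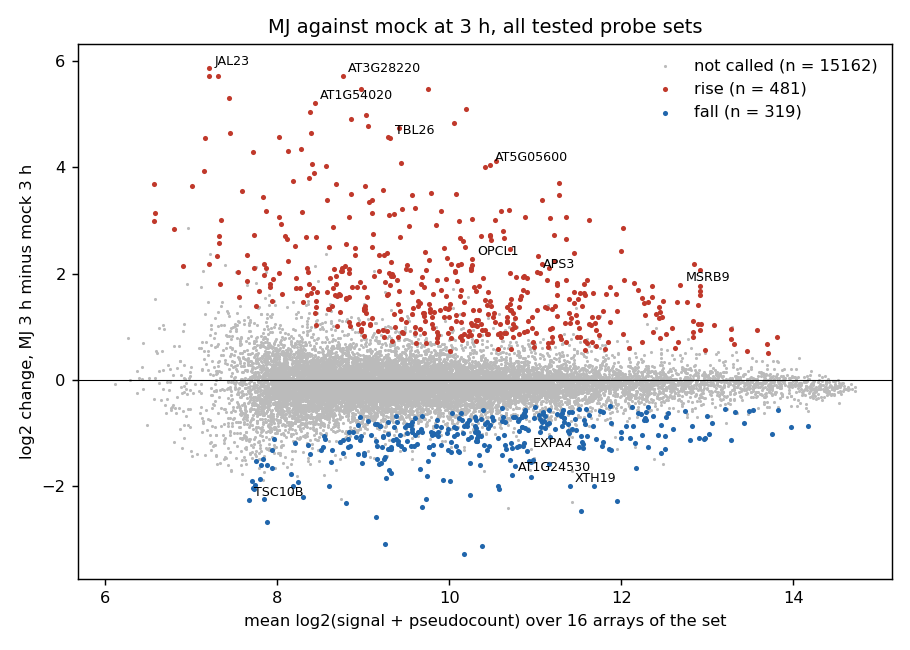
The log2 change of MJ 3 h against mock 3 h (vertical axis) is plotted against the mean log2 level over the 16 arrays of the set (horizontal axis), with 1 point per tested probe set. Red points are the 481 rises and blue points the 319 falls, grey points were not called, and the rises reach 5.87 while the falls reach -3.30.

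A platform annotation paired 1 gene with 185 of the rises and with 149 of the falls, and 282 rises and 167 falls are unnamed here. Of 306 genes in 21 lists (pathways, hormone responses and tissue markers), 55 were tested, of which 13 rose and 5 fell. None of the JAZ repressors had a named probe set. Called genes with a symbol outside the lists count as named too, though not all are described below. These were chosen after their values were seen, and the lists were drawn up with earlier results of these data known. Over all tested probe sets 3.01% rose and 2% fell, to be set beside each count of list or family members below.

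The tested genes of jasmonate breakdown rose, and so did a gene of its synthesis. All 3 tested members of the turnover list rose, with a median of 4.05, and 1 of 2 tested synthesis genes rose. Of 11 turnover genes listed, 4 had a named probe set. JRG21 passed the filter through the MJ arrays alone, so it could enter this count only by being high under MJ. JRG21, which encodes an oxygenase that inactivates jasmonic acid by hydroxylation, had scaled signals of 2734 and 2866 on the MJ arrays and of 28.5 and 143.8 on the mock arrays. Both MJ arrays stood far above mock, whose own arrays were far apart. The rise was 25.0-fold (log2 change 4.65, SE 0.57, limma adjusted p = 1.6e-04), and it was 3.92 without mock replicate 1 and 5.42 without mock replicate 2. AT5G05600 read 12629 and 15096 under MJ and 733.6 and 867.3 under mock, a 16.5-fold rise (SE 0.24 on the log2 scale, adjusted p = 3e-07). AT2G38240 read 2780 and 1742 under MJ and 300.4 and 232.2 under mock, a 7.34-fold rise (adjusted p = 0.0045) that lost its call without MJ replicate 1 (log2 change 2.53, adjusted p = 0.0597). OPCL1 activates a precursor of jasmonic acid for the shortening of its side chain. Its signals were 4607 and 4775 under MJ and 905.3 and 973.4 under mock, so the spread within each group was small beside the 4.83-fold rise (SE 0.24, adjusted p = 4.3e-05). Of the transcription factors of the pathway, 2 were tested and neither was called, and MYC3, one of the regulators held back by JAZ proteins, had a log2 change of 0.56 (SE 0.18, adjusted p = 0.12).

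Of 3 tested defence protein genes 1 rose. Of 7 tested genes for lectins, myrosinases and ER bodies 2 rose, with a median change of 0.48 and 6 of 7 above 0. Among these rises, THI2.1 and JAL23 passed the filter through the MJ arrays alone and could be counted only by being high under MJ. JAL23 encodes a lectin of the jacalin-related family, proteins that bind sugars. Its signals were 4731 and 3659 under MJ and 8.15 and 64.0 under mock. Both treated arrays lay far above both mock arrays, 58.4-fold on the log2 scale with pseudocount (5.87, SE 0.60, adjusted p = 3.6e-05). Since the mock signals are low, the size of this change depended on the mock array left out (5.27 without replicate 1, 6.51 without replicate 2). It was the largest fitted change among named genes, but AT1G54020 was above it without mock replicate 1 (5.58), AT1G76640 without mock replicate 2 (6.72) and AT3G28220 with a pseudocount of 50% of the median signal (5.01, with JAL23 at 4.19), so the order at the top of the rises is uncertain. THI2.1, a thionin, a small antimicrobial peptide, read 672.3 and 548.9 under MJ and 126.1 and 121.8 under mock. It rose 3.93-fold (SE 0.39, adjusted p = 0.0082), and the adjusted p was 0.0579 without mock replicate 1 and 0.0568 without mock replicate 2. The plant defensin gene PDF1.2 overlapped between groups, with 1502 and 2613 under MJ and 422.4 and 3185 under mock (log2 change 0.73, SE 0.84, adjusted p = 0.81).

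ER bodies are spindle-shaped stores of beta-glucosidases in seedlings of Arabidopsis and its relatives. NAI2, a protein needed to form them, read 14600 and 13163 under MJ and 8526 and 6448 under mock. It rose 1.86-fold (SE 0.18, adjusted p = 0.008), a call lost without mock replicate 2 (log2 change 0.70, adjusted p = 0.112) or MJ replicate 1 (0.82, adjusted p = 0.0813). NAI1, the transcription factor that controls these bodies, was higher on both MJ arrays but was not called (0.97, SE 0.30, adjusted p = 0.0913). Outside the lists, 2 of 10 tested genes with a BGLU symbol rose, with a median change of 0.24. The beta-glucosidase gene BGLU28 read 1038 and 1084 under MJ and 243.1 and 288.9 under mock, a 3.6-fold rise (SE 0.32, adjusted p = 0.0031). BGLU16, of the same enzyme family, rose 1.63-fold (adjusted p = 0.045) and lost its call whichever of the 4 arrays was left out (adjusted p = 0.172 to 0.213). EULS3, a lectin of another family, rose 2.44-fold (adjusted p = 0.047), and its adjusted p was 0.375 without mock replicate 2, 0.238 without MJ replicate 1 and 0.115 without MJ replicate 2.

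Glucosinolates are built from amino acids and sulfur. Of the 2 tested genes in the list of sulfur assimilation and antioxidants 1 rose, and the only tested genes of tryptophan synthesis and of indole glucosinolates rose. APS3, an ATP sulfurylase at the entry of sulfate assimilation, read 6164 and 10582 under MJ and 1424 and 2628 under mock, a 4.11-fold rise (SE 0.32, adjusted p = 0.0012). Replicate 2 was the higher array in both groups, and the groups did not overlap, as at every rise. GR1, a glutathione reductase, was the member not called (log2 change 0.23, SE 0.13, adjusted p = 0.498). SIR, GTR1 and TAAC, named below, stand outside the lists. SIR, the single sulfite reductase of this plant, read 14497 and 17114 against 7851 and 7428, a 2.06-fold rise (SE 0.15, adjusted p = 6.3e-04). AT2G04400, the tested member of the tryptophan synthesis list, read 10101 and 9310 against 2483 and 3078, a 3.47-fold rise (SE 0.20, adjusted p = 7.1e-05). UGT74B1 transfers glucose in the core pathway of glucosinolates, and GTR1 carries finished glucosinolates across the plasma membrane. UGT74B1 read 6165 and 6676 under MJ and 2862 and 2700 under mock and rose 2.29-fold (SE 0.21, adjusted p = 0.003). GTR1 read 3547 and 3232 against 1042 and 1305 and rose 2.84-fold (SE 0.22, adjusted p = 8e-04). The 2 tested genes of aliphatic glucosinolates were not called, with BCAT4, an aminotransferase that starts the lengthening of methionine, at 0.53 (SE 0.20, adjusted p = 0.2). TAAC, a carrier of ATP and of the sulfate donor PAPS in chloroplast membranes, read 4142 and 3523 against 1661 and 1513 and rose 2.37-fold (SE 0.16, adjusted p = 2.4e-04).

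The only tested member of the list of flavonoids and anthocyanins rose. DFR, dihydroflavonol reductase of anthocyanin synthesis, read 3068 and 2456 under MJ and 862.7 and 546.7 under mock, a 3.82-fold rise (SE 0.29, adjusted p = 0.001). UGT78D1 adds rhamnose to flavonols and rose 2.28-fold (2769 and 2402 against 1158 and 1064, adjusted p = 0.0032, or 0.0686 in the fit over 48 Col-0 arrays). UGT78D2, of the same enzyme family, was not called (log2 change 1.09, adjusted p = 0.124). Of 31 tested genes with a UGT symbol 3 rose and 1 fell. CYP84A4, a cytochrome P450 of alpha-pyrone synthesis from phenolics, rose 3.31-fold (634.8 and 1104 against 220.9 and 228.5, adjusted p = 0.0014). The MJ and mock arrays of DFR, UGT78D1 and CYP84A4 did not overlap, as at every called probe set. MSRB6 and MSRB9 encode methionine sulfoxide reductases, which repair oxidised methionine, and 2 of 4 tested members of the family rose. MSRB6 read 6017 and 6837 under MJ and 1654 and 1347 under mock (4.21-fold, SE 0.20, adjusted p = 2.4e-05). MSRB9 read 20475 and 29496 against 8025 and 6299 (3.44-fold, SE 0.22, adjusted p = 2.1e-04). MSRB3 (log2 change 0.38, adjusted p = 0.452) and MSRB5 (0.56, adjusted p = 0.129) were not called. Of the glutathione transferase genes of the tau class, 2 of 8 tested rose, GSTU26 by 5.03-fold (10681 and 7923 against 2057 and 1569, adjusted p = 1.2e-05) and GSTU16 by 2.26-fold (1312 and 1526 against 554.5 and 653.9, adjusted p = 9e-04). GRX480, a glutaredoxin placed in the salicylic acid list, rose 2.98-fold (1158 and 969.5 against 321.1 and 336.2, adjusted p = 0.01). Its call was lost without mock replicate 1 (adjusted p = 0.0806), mock replicate 2 (0.0589) or MJ replicate 1 (0.0952). ALDH7B4, an aldehyde dehydrogenase of stress responses, rose 2.38-fold (3731 and 4773 against 1508 and 2028, adjusted p = 0.0023).

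Calmodulin-like proteins bind calcium and pass on its signal. Of 6 tested genes with a CML symbol 1 rose, and the changes of CML23, CML30, CML41, CML42 and CML43 lay between -0.27 and 0.95 and were not called. The gene that rose, CML38, passed the filter through the MJ arrays alone. AT1G76640, for which RefSeq lists the synonym CALMODULIN LIKE 39, read 5743 and 5687 under MJ and 16.7 and 162.4 under mock. The MJ arrays were nearly equal while the mock arrays were far apart, so the 53.1-fold rise (log2 change 5.73, SE 0.80, adjusted p = 5.5e-04) became 4.80 without mock replicate 1 and 6.72 without mock replicate 2. Its neighbour in the RefSeq gene order, CML38, read 873.3 and 961.4 against 136.2 and 78.1 and rose 6.59-fold (SE 0.46, adjusted p = 0.0023). STZ, a zinc finger repressor of stress responses, read 682.9 and 1051 against 282.5 and 102.4 and rose 4.13-fold (adjusted p = 0.011), a call lost without mock replicate 2 (log2 change 1.47, adjusted p = 0.135) or MJ replicate 2 (1.76, adjusted p = 0.105).

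Other called rises lay outside the lists. TBL26 and TBL37 belong to a family that acetylates wall polysaccharides, and 2 of its 16 tested members rose. TBL26 read 11243 and 8256 under MJ and 296.2 and 460.4 under mock, a 23.5-fold rise (SE 0.37, adjusted p = 4.3e-06). TBL37 rose 3.81-fold (5674 and 7036 against 1436 and 1841, adjusted p = 2.4e-05). The vacuolar fructose transporter gene SWEET17 rose 2.24-fold (4496 and 4533 against 1918 and 2069, adjusted p = 0.0074), and its adjusted p was 0.0748 without mock replicate 1, 0.0532 without MJ replicate 1 and 0.0505 without MJ replicate 2. PMEAMT, a methyltransferase on the way to phosphocholine, rose 1.75-fold (adjusted p = 0.0077), with an adjusted p of 0.0533 without mock replicate 1, 0.0652 without mock replicate 2 and 0.11 without MJ replicate 1.

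AT3G28220 read 13917 and 12900 under MJ and 149.4 and 299.7 under mock, a 52.8-fold rise (SE 0.32, adjusted p = 2.6e-07). AT4G17470 read 3930 and 3742 against 24.3 and 42.2 (52.5-fold, SE 0.53, adjusted p = 1.5e-05). AT1G54020 read 6801 and 7297 against 209.6 and 103.9 (37.2-fold, SE 0.29, adjusted p = 2.6e-07). In all 3 loci the MJ arrays differed from each other far less than from mock. AT1G52000 (11104 and 9758 against 368.1 and 221.0, 31.9-fold), AT3G28270 (4753 and 3029 against 108.7 and 130.6, 23.9-fold) and AT4G02360 (2211 and 1967 against 121.5 and 9.56, 23.4-fold) followed. AT4G02360 had a log2 change of 5.29 without mock replicate 1 and of 3.73 without mock replicate 2. The rest of the 15 largest named rises were AT2G34810 (16.6-fold), AT1G31550 (14.8-fold), AT5G35940 (12.8-fold) and AT1G14120 (12.5-fold), whose lowest MJ signal was 2780 and whose highest mock signal was 431.0. The RefSeq table used here gives these loci no symbol.

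**Figure D2:**
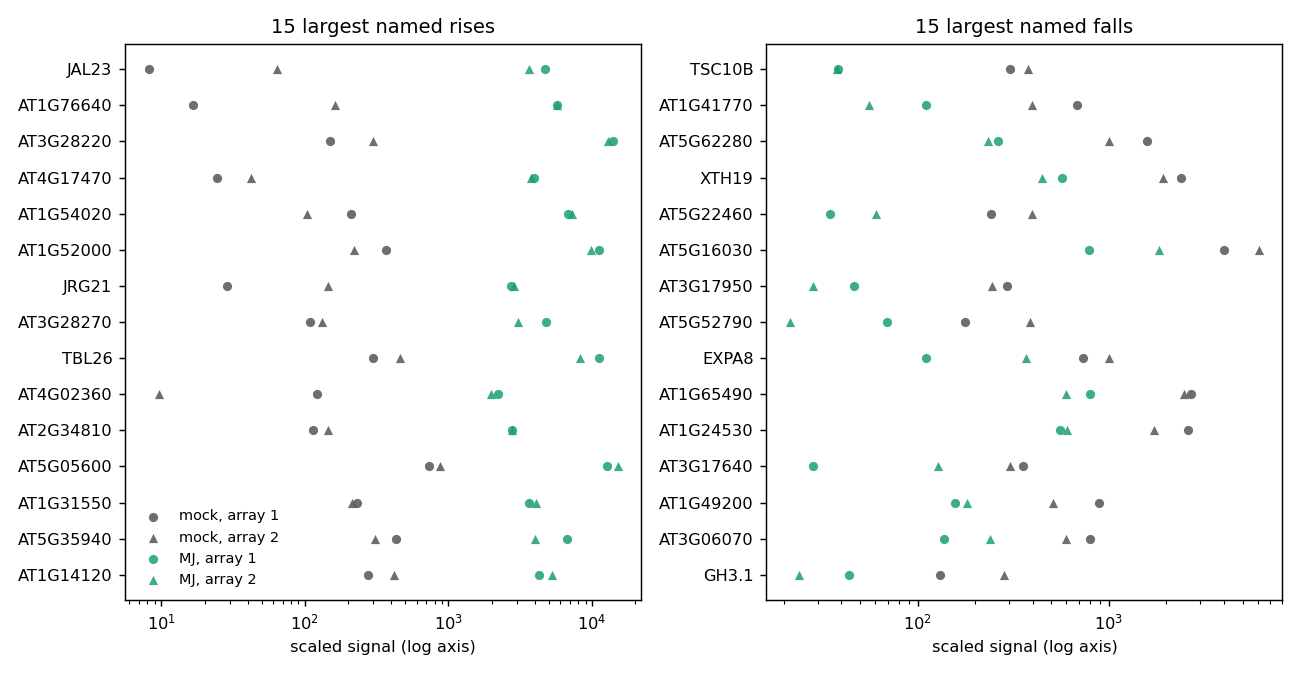
Scaled signals on a log axis are plotted for the 15 largest named rises (left) and the 15 largest named falls (right), with 1 row per gene, circles for array 1 and triangles for array 2 of mock (grey) and MJ (green). Rows were picked among genes whose 2 MJ arrays lie apart from the 2 mock arrays, and the gap is widest for AT4G17470, from 42.2 to 3742.

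The list of cell wall and growth genes held 4 of the 5 falls among list members. Of its 8 tested genes 4 fell, none rose and 1 had a change above 0, with a median of -0.94. Falls were 2% of all tested probe sets, and the list was drawn up with earlier results of these data known. XTH19, a xyloglucan endotransglucosylase that cuts and rejoins wall polymers, read 568.5 and 446.5 under MJ and 2376 and 1931 under mock. The groups were well apart and the fall was 4-fold (log2 change -2.0, SE 0.21, adjusted p = 4.4e-05). EXPA8 and EXPA4 encode expansins, proteins that loosen walls as cells enlarge, and 2 of 8 tested members of that family fell. EXPA4 read 795.6 and 862.8 against 2038 and 2296 and fell 2.54-fold (SE 0.17, adjusted p = 2.8e-04). EXPA8 read 110.4 and 369.1 against 734.4 and 998.2 and fell 3.6-fold (SE 0.46, adjusted p = 0.032). Its call rested on MJ array 1, with a log2 change of -1.12 (adjusted p = 0.292) without it, and was also lost without mock replicate 1 (adjusted p = 0.0951) or mock replicate 2 (0.22). EXO, a wall-associated protein tied to brassinosteroid growth, read 528.1 and 934.9 against 1808 and 1550 and fell 2.3-fold (SE 0.21, adjusted p = 0.0034, or 0.0513 without mock replicate 1). ARL, which promotes organ size through cell expansion, read 1143 and 840.9 against 2842 and 1880 and fell 2.3-fold (SE 0.31, adjusted p = 0.039), with an adjusted p of 0.339 without mock replicate 1, 0.0744 without MJ replicate 1 and 0.249 without MJ replicate 2.

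Within the same list, XTH18 had a change of -0.68 (SE 0.22, adjusted p = 0.125) and XTH33 one of -0.55 (SE 0.20, adjusted p = 0.164), and neither was called. Of 8 tested genes with an XTH symbol 1 fell, with a median change of -0.295. XTH16, XTH20 and XTH26 had changes of 0.22, 0.16 and 0.55 and were not called. Outside the list, the pectin methylesterase gene ATPMEPCRB read 596.6 and 570.8 under MJ and 1271 and 1509 under mock. It fell 2.28-fold (SE 0.22, adjusted p = 0.0056, or 0.064 without mock replicate 2). BAT1, an acyltransferase that inactivates brassinosteroids, read 299.3 and 281.1 against 1090 and 725.0 and fell 2.81-fold (SE 0.25, adjusted p = 0.0026, or 0.0525 without mock replicate 1). DRT100 read 2188 and 2101 against 4899 and 4422 and fell 2.15-fold (SE 0.19, adjusted p = 0.0025). Of the tetraspanin genes, membrane proteins that form scaffolds, 2 of 9 tested fell. These were TET7 (1.58-fold, adjusted p = 0.016) and TET3 (1.49-fold, adjusted p = 0.032). The call of TET7 was lost whichever array was left out (adjusted p = 0.0522 to 0.147) and that of TET3 without mock replicate 1 (0.125), mock replicate 2 (0.191) or MJ replicate 2 (0.264).

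Auxin genes moved in both directions. Of 8 tested genes in the auxin list, 1 rose and 1 fell, with a median change of -0.07. GH3.3, GH3.1 and WES1 encode enzymes of one family that joins auxin to amino acids, and GH3.3 is known to do so for jasmonic acid as well. GH3.3 read 1038 and 1958 under MJ and 716.2 and 510.4 under mock and rose 2.27-fold (SE 0.27, adjusted p = 0.021), with an adjusted p of 0.202 without mock replicate 2 and 0.221 without MJ replicate 2. GH3.1, which is outside the list, read 43.8 and 23.9 against 131.1 and 282.2, a fall of 3.18-fold from dim signals (SE 0.43, adjusted p = 0.037). That call was lost without mock replicate 2 (adjusted p = 0.316), MJ replicate 1 (0.0973) or MJ replicate 2 (0.194). WES1 had a change of -0.62 (SE 0.23, adjusted p = 0.185). HAT2, a homeodomain factor of shade and auxin responses, read 654.3 and 509.4 against 1037 and 1135 and fell 1.82-fold (SE 0.18, adjusted p = 0.012). Its adjusted p was 0.0585 without mock replicate 1, 0.0985 without mock replicate 2 and 0.122 without MJ replicate 2. IAA29, a repressor of auxin signalling, had a change of -1.07 that was not called (SE 0.31, adjusted p = 0.0664).

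Further called falls lay outside the lists. Of 10 tested SWEET genes 1 fell and 1 rose. SWEET2, a sugar carrier of the vacuole membrane, read 551.2 and 487.9 under MJ and 1347 and 1233 under mock and fell 2.38-fold (SE 0.20, adjusted p = 0.0013). ATSPS4F, a sucrose phosphate synthase, read 513.0 and 470.2 against 1425 and 1209 and fell 2.54-fold (SE 0.20, adjusted p = 8e-04). Both sugar genes kept their calls whichever of the 4 arrays was left out, but ATSPS4F was not called in the fit over 48 Col-0 arrays (adjusted p = 0.1). TSC10B, a reductase of sphingolipid synthesis, had the largest fall among named genes, from 305.4 and 376.5 under mock to 38.6 and 37.7 under MJ (log2 change -2.26, SE 0.59, adjusted p = 0.042). Its call was lost whichever array was left out (adjusted p = 0.154 to 0.225) and with ACC and BL as comparator (0.171), so the order at the top of the falls is uncertain. HPR, hydroxypyruvate reductase of photorespiration, fell 1.51-fold (8413 and 9223 against 13175 and 13468, adjusted p = 0.031), GME of ascorbate synthesis fell 1.53-fold (4059 and 3488 against 5505 and 6037, adjusted p = 0.027) and GPDHC1, a glycerol phosphate dehydrogenase, fell 1.62-fold (648.6 and 616.5 against 1056 and 1044, adjusted p = 0.0099). All of these calls were lost whichever array was left out, with adjusted p up to 0.205, 0.206 and 0.0808. CRR42, an assembly factor of the chloroplast NDH complex, fell 1.85-fold (520.3 and 746.9 against 1167 and 1208, adjusted p = 0.013), with an adjusted p of 0.0797 without mock replicate 1, 0.0876 without mock replicate 2 and 0.158 without MJ replicate 1.

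Among falls of loci without a symbol, 5 of the 15 largest kept their calls in every setting that tested them. AT5G62280 read 262.4 and 233.0 under MJ and 1583 and 1004 under mock and fell 4.52-fold (SE 0.27, adjusted p = 2e-04). AT1G65490 read 792.5 and 597.2 against 2681 and 2469 and fell 3.58-fold (SE 0.23, adjusted p = 2.2e-04). AT1G24530 read 555.5 and 607.7 against 2588 and 1724 and fell 3.46-fold (SE 0.20, adjusted p = 6.8e-05). In each of them the MJ arrays were close together and both mock arrays lay well above. AT3G17950 fell 3.96-fold from 292.0 and 245.3 to 46.3 and 28.4 (adjusted p = 0.0035), and AT1G49200 fell 3.4-fold from 883.7 and 511.0 to 157.4 and 181.6 (adjusted p = 0.0016). AT1G41770, listed by RefSeq as a pseudogene, AT5G22460, AT5G16030, AT5G52790, AT3G17640 and AT3G06070 had log2 changes of -2.22, -2.0, -2.0, -1.88, -1.77 and -1.71. Each of these 6 lost its call without at least 2 of the 4 arrays. The largest adjusted p was 0.135 for AT1G41770 without mock replicate 1, 0.111 for AT5G22460 without mock replicate 2, 0.359 for AT5G16030 without MJ replicate 1, 0.288 for AT5G52790 without mock replicate 2, 0.296 for AT3G17640 without MJ replicate 1 and 0.171 for AT3G06070 without MJ replicate 1.

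The lists of 5 other processes held 14 tested genes and no call by limma, and 2 of the genes had an unadjusted p under 0.05 (LEA4-5 and COR47). The 3 tested cell division genes had a median change of -0.02, the 3 tested photosynthesis genes one of -0.33 with none above 0, the 4 tested genes of dehydration and ABA response one of -0.36, the 2 tested ethylene response genes one of 0.03 and the 2 root markers one of 0.52. The dehydration genes included LEA4-5, a late embryogenesis protein, at 1.26 (SE 0.58, adjusted p = 0.33) and the dehydrin COR47 at -0.71 (SE 0.28, adjusted p = 0.24). With so few members tested, and against a median of -0.09 for all probe sets, these values say little of the processes as a whole.

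The earlier samples ask whether the changes at 3 h were already present. MJ and mock arrays at 30 min and 1 h belong to other sets and share no array with the 3 h comparison. In a limma fit over all 48 Col-0 arrays (16735 probe sets), 226 probe sets rose at 30 min (1.35%) and 54 fell (0.323%), 555 rose at 1 h (3.32%) and 265 fell (1.58%), and 607 rose at 3 h (3.63%) and 587 fell (3.51%). Of the 481 rises at 3 h, 432 lay on the same side at 30 min and 474 at 1 h, with median changes of 0.57 and 1.2. Of these, 162 were called rises at 30 min, which is 33.7% of the rises at 3 h and 71.7% of those at 30 min, and 322 were called at 1 h, which is 66.9% of the former and 58% of the latter. The falls had fewer early calls. Of the 319 falls, 251 lay on the same side at 30 min and 303 at 1 h, with median changes of -0.20 and -0.51, and 20 (6.27%, and 37% of the falls at 30 min) and 95 (29.8%, and 35.8% of those at 1 h) were called. No rise or fall at 3 h was called in the opposite direction earlier. Time coincides with the array set, so the 2 cannot be told apart.

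Named genes differed in their calls at the earlier times. Some rose from 30 min on, with AT1G76640 at 5.14 at 30 min (adjusted p = 5.6e-06) and 6.28 at 1 h, AT5G05600 at 2.89 and 4.25, and GRX480 at 2.09 and 2.50. OPCL1 was at 2.86 at 30 min (adjusted p = 7.8e-12), 3.60 at 1 h and 2.27 at 3 h. Others were called at 3 h and not earlier, and for these 4 the difference between 3 h and 1 h did not pass. THI2.1 was at 0.33 at 30 min and 0.40 at 1 h (adjusted p = 0.67), DFR at -0.26 and 0.12 (adjusted p = 0.94), BGLU28 at 0.17 and 0.17 (adjusted p = 0.94) and NAI2 at -0.04 and 0.17 (adjusted p = 0.6). Among regulators that were not called at 3 h, NAI1 was at 1.5 at 30 min (adjusted p = 0.0085) and 2.03 at 1 h (adjusted p = 8.1e-05), and MYC3 was at 1.14 at 1 h (adjusted p = 9.2e-04). Among the falls, AT1G24530 was at -1.5 at 30 min (adjusted p = 3.1e-06) and -1.51 at 1 h, HAT2 at -1.18 (adjusted p = 0.002) and -0.93, and EXO at -1.07 (adjusted p = 0.013) and -1.25. XTH19 was at -0.04 at 30 min and -0.55 at 1 h (adjusted p = 0.43), and ATSPS4F at -0.09 and 0.15 (adjusted p = 0.94).

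The difference between the responses at 3 h and 1 h was tested directly. It was called at 27 probe sets, 18 of them higher at 3 h (0.108% of those tested) and 9 lower (0.0538%), and 12 of the 27 name 1 gene. AT3G28220 was at 2.36 at 1 h and 5.71 at 3 h (difference 3.36, SE 0.57, adjusted p = 0.0033). AT1G54020 was at 2.04 and 5.21 (difference 3.16, SE 0.41, adjusted p = 1.2e-04). Both loci thus had called rises at 1 h and gained at 3 h. AT3G28270 was at 0.86 at 1 h, where it was not called, and at 4.57 at 3 h (difference 3.71, SE 0.58, adjusted p = 0.0016). OPCL1 was lower at 3 h than at 1 h by 1.33 (difference -1.33, SE 0.27, adjusted p = 0.028). For JAL23, at 1.70 and 5.84, the difference of 4.14 did not pass (adjusted p = 0.055), and those of THI2.1 (adjusted p = 0.338), DFR (0.343), BGLU28 (0.698), NAI2 (0.115), NAI1 (0.632), XTH19 (0.3) and ATSPS4F (0.672) did not pass either. Leaving out 1 of the 8 arrays gave 8 to 27 higher and 2 to 9 lower probe sets, and the higher ones numbered 8 without MJ 3 h replicate 2, mock 1 h replicate 2 or MJ 1 h replicate 2.

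**Figure D3:**
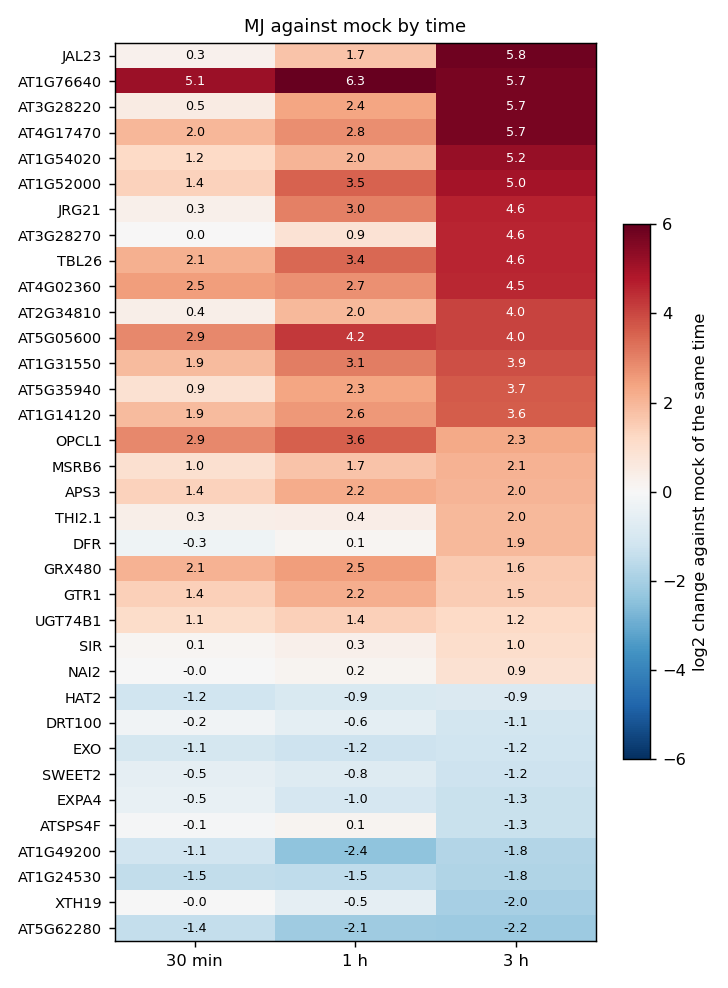
Colour and number give the log2 change of MJ against the mock of the same time at 30 min, 1 h and 3 h for 35 named genes, in the order of their change at 3 h within rises and falls, from the fit over 48 Col-0 arrays. AT1G76640 is already at 5.14 at 30 min, OPCL1 peaks at 1 h with 3.60, and XTH19 is near 0 at 30 min and at -2.0 at 3 h.

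The other treatments of the set show which changes were shared at 3 h. These comparisons use the same mock arrays, so their values are only set side by side, and doses differ between hormones. MJ was higher than mock and each of the other 6 treatments at 269 probe sets (1.69% of those tested) and lower at 40 (0.251%), each contrast passing 0.05 after adjustment. The higher probe sets numbered 174 without MJ replicate 1, and the lower ones 22 without MJ replicate 1 or mock replicate 1. JAL23, JRG21, AT5G05600, AT2G38240, OPCL1, THI2.1, APS3, SIR, UGT74B1, GTR1, DFR, TBL26, MSRB6 and MSRB9 were among the higher ones. Of these, JAL23, JRG21 and THI2.1 passed the filter through the MJ arrays alone and could be counted only by being high under MJ. The same holds for 32 of the 481 rises, and how many of them are among the 269 was not counted. XTH19, ARL, HAT2, GPDHC1, AT1G24530, AT1G49200 and AT3G17950 were among the lower ones.

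ABA was the treatment against which the rises differed least often in the same direction. A direct contrast of MJ with ABA, which uses no mock array, called 1862 probe sets higher under MJ (11.7%) and 1766 lower (11.1%). Of the 481 rises, 412 lay higher under MJ than under ABA and 31 were called lower, against 475 to 480 higher under MJ for the other hormones. Of the 319 falls, 238 lay lower under MJ than under ABA and 25 were called higher, against 312 to 317 lower for the others. The same MJ arrays picked these probe sets and enter every one of these contrasts. A large share on the called side was thus set by that choice and gives no independent support. The share on each side over all tested probe sets was not counted. AT4G02360 changed by 3.32 under ABA (adjusted p = 7e-04) and by 4.55 under MJ, and the direct difference of 1.23 did not pass (adjusted p = 0.13). AT2G34810 changed by 2.83 under ABA and by 4.06 under MJ, a difference of 1.23 that passed (adjusted p = 0.0049). ALDH7B4 was higher under ABA than under MJ, with changes of 3.26 and 1.25 (difference -2.01, adjusted p = 9.9e-06), and so was EULS3 with 2.75 and 1.29 (difference -1.47, adjusted p = 0.0064). LEA4-5 changed by 7.05 under ABA (adjusted p = 2.1e-06), and MJ lay lower by 5.78 on the log2 scale (difference -5.78, adjusted p = 7.3e-06).

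Other genes moved in opposite directions under the 2 hormones. MSRB9 changed by 1.78 under MJ and by -1.72 under ABA (difference 3.5, adjusted p = 1.4e-07), MSRB6 by 2.07 and -1.28 (difference 3.35, adjusted p = 9.7e-08), APS3 by 2.04 and -1.05 (difference 3.09, adjusted p = 8.8e-06) and SIR by 1.04 and -0.72 (difference 1.76, adjusted p = 1.5e-06). These redox and sulfur genes passed in both comparisons with mock. AT5G22460 fell by 2.0 under MJ and changed by 4.12 under ABA (difference -6.12, adjusted p = 2.1e-07), and GPDHC1 fell by 0.70 and changed by 1.36 (difference -2.05, adjusted p = 2.7e-07). EXPA8 fell under both, by 1.85 under MJ and by 3.32 under ABA (adjusted p = 1.7e-04). DRT100 fell by 1.1 under MJ and by 1.42 under ABA (adjusted p = 1.1e-04), and the difference of 0.32 did not pass (adjusted p = 0.26).

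Several genes that fell under MJ rose under auxin or brassinolide. XTH19 changed by -2.0 under MJ, 1.83 under IAA (adjusted p = 5.6e-04) and 2.30 under BL (adjusted p = 2.6e-04). EXO changed by -1.2 under MJ and by 2.1 under BL (adjusted p = 5e-04), and ATPMEPCRB by -1.19 and 2.30 (adjusted p = 4e-04). EXPA4 changed by -1.34 under MJ and by 1.31 under IAA (adjusted p = 0.0016), HAT2 by -0.86 and 2.73 (adjusted p = 3.7e-06) and AT5G62280 by -2.18 and 2.05 (adjusted p = 0.0015). The auxin conjugation genes differed among themselves. GH3.3 changed by 1.18 under MJ, 5.28 under IAA (adjusted p = 5.5e-07) and 2.62 under ABA (adjusted p = 1.7e-05), while GH3.1 changed by -1.67 under MJ and by 3.24 under IAA (adjusted p = 0.0015). Zeatin raised BGLU28 by 2.58 (adjusted p = 0.0073) and GSTU26 by 1.46 (adjusted p = 0.017), beside 1.85 and 2.33 under MJ.

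**Figure D4:**
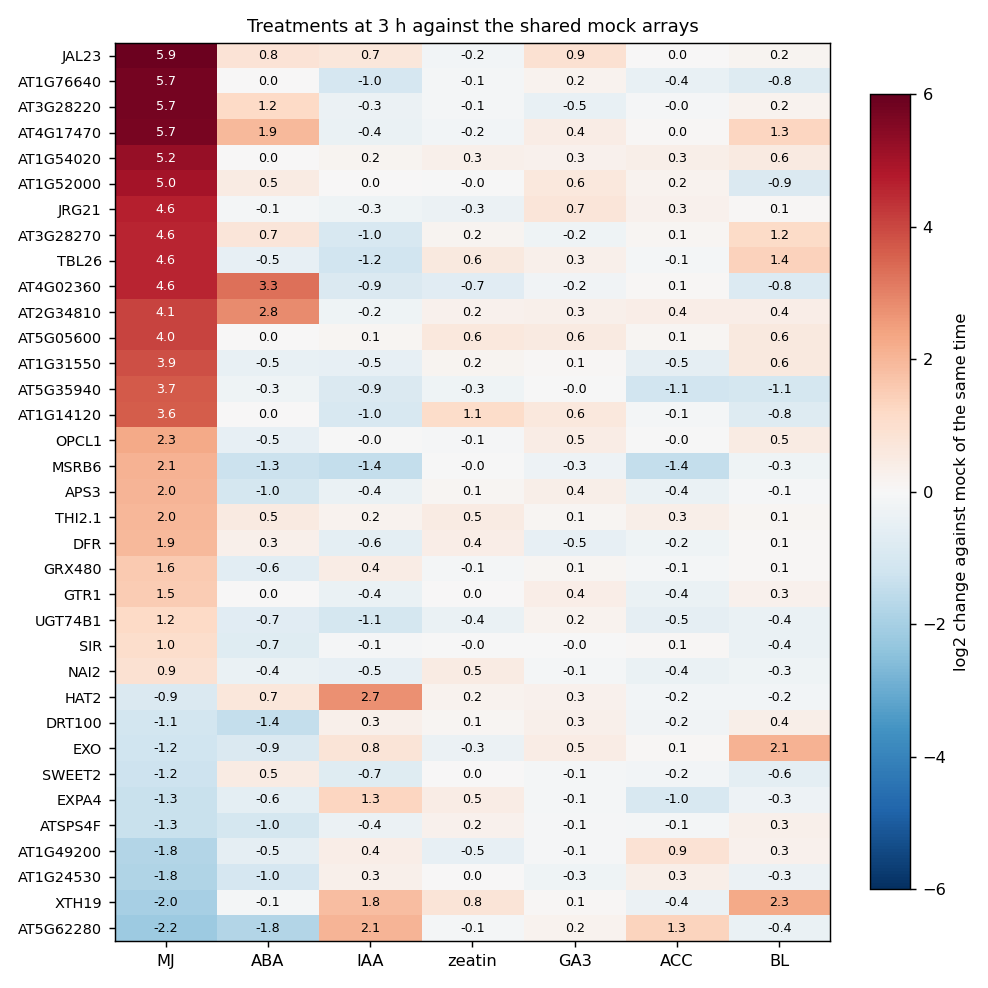
Colour and number give the log2 change against the shared mock arrays at 3 h for MJ and 6 other treatments (columns) and 35 named genes (rows). The MJ column is strongly positive for the rises, AT4G02360 and AT2G34810 are also high under ABA (3.32 and 2.83), and XTH19 is positive under IAA and BL (1.83 and 2.30).

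Called genes were also looked at for their places in the genome. Among 2885 pairs of adjacent genes in the RefSeq order that were both tested, 7 pairs rose together and 2 fell together. Of the neighbours of rises 10% rose, beside 2.43% of all genes in these pairs, and of the neighbours of falls 3.81% fell, beside 1.82%. These shares rest on few pairs. AT1G76640 and CML38, which form 1 of the rising pairs, both passed the filter through the MJ arrays alone. Their pair could be counted only because both were high under MJ. The rising pairs were AT1G14120 with AT1G14130, AT1G76640 with CML38, AT3G50270 with AT3G50280, AT4G29690 with AT4G29700, AT4G30450 with AT4G30460, AT5G19100 with AT5G19110 and AT5G24610 with AT5G24620. The falling pairs were AT1G29660 with AT1G29670 and AT5G01740 with AT5G01750. In the first of these rising pairs the changes were 3.65 and 2.38, and in the pair that ends with AT4G29700 they were 2.69 and 2.49. Neighbouring copies of one gene can bind the same probes, and cross-hybridisation was not tested.

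Many calls of named genes were lost when the processing was changed. The counts here take in all called genes under the naming rule, also those not described above. Of 51 called and named rises, 35 were called in every setting that tested them, and of 40 named falls 9 were (DRT100, SWEET2, EXPA4, XTH19, AT1G49200, AT1G24530, AT1G65490, AT3G17950 and AT5G62280). In most cases the call was lost on leaving out 1 of the 4 arrays, which happened to 15 of the rises and 30 of the falls. Not every gene could be tested in every setting, since 6 of the rises, such as JAL23, dropped under the filter without an MJ array and 8 of the falls in some setting. Among those tested in every setting, 30 of 45 rises and 8 of 32 falls never lost their call.

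**Figure D5:**
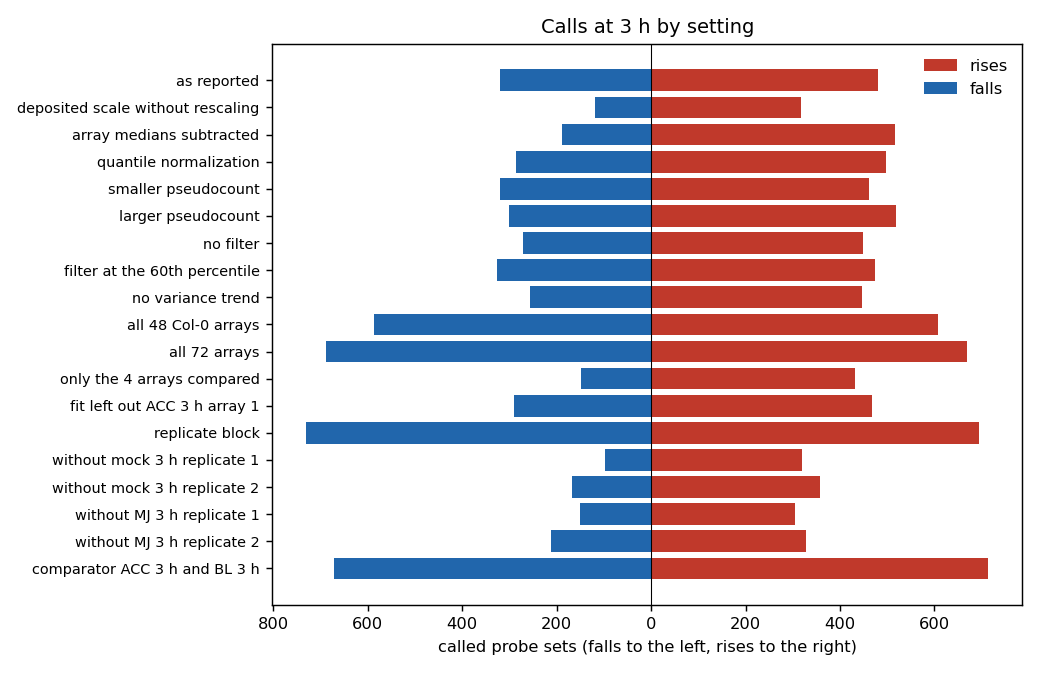
Bars give the number of probe sets called as falls (blue, to the left of 0) and rises (red, to the right) under each setting. Rises range from 304 to 714 and falls from 98 to 730, with 481 and 319 as reported.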

How the data were processed

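Biotin-labelled RNA of whole seedlings was hybridised to Affymetrix ATH1 arrays. The deposited values are signal intensities on a linear scale, 1 per probe set and array, made by the authors with MAS5 per the submitters' processing notes. Its version and scaling target are not given in the sources used here, and scanner files, detection calls and scan dates were not used. Of 22810 probe sets, 64 controls were left out.

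Arrays were brought to one 2% trimmed mean, and log2(signal + 41.08) was taken, with a pseudocount of 10% of the set's median deposited signal. Folds refer to this scale and are too small where signals are dim. The filter kept probe sets above their array's 40th percentile on 2 or more arrays. Group means were fitted with limma 3.58.1 (R 4.3.3) to the 16 Col-0 arrays of the 3 h set, leaving 8 residual degrees of freedom, and eBayes was run with an intensity trend. Adjusted p-values come from limma by the Benjamini-Hochberg method over every tested probe set, with a threshold of 0.05. Values at 30 min and 1 h, and the difference between 3 h and 1 h, come from a fit over 48 Col-0 arrays (24 residual degrees of freedom). In it, whole stretches of probe sets around impossible intensities on the IAA 30 min replicate 2 array were set to missing, 1973 values in all. The scripts were tested on simulated data. Precision is limited by the small number of arrays.

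By the platform annotation 13513 probe sets name 1 gene, 503 name several and 8730 have no name here. For 13436 the symbol was updated through the Entrez identifier to RefSeq (TAIR10.1). Named genes are, from called probe sets with 1 gene and no overlap between the MJ and mock arrays, the 15 that rose most and the 15 that fell most, and tested list members. The other called genes with a symbol (66 in all, 37 rises and 29 falls) were added, though not all are described in the text. The comparisons, gene lists and naming rule were chosen with earlier results of these data known. The alternatives tried cover scaling, pseudocount, filter, variance trend, arrays fitted, replicate block, a 2-fold threshold, each compared array left out, and the comparator of ACC and BL, which was added after the data were seen. Replicate numbers of MJ and mock were not taken as pairs, since there are only 2, the labels tie the number to no shared batch, and their replicate differences correlated at 0.0949. The deposited scaling does go with the number, and replicate differences of some other groups correlated at up to 0.469. The 8 residual degrees of freedom are thus not fully independent between groups. The fit with the number as a block is therefore given beside the counts. No promoter, probe or protein sequence was used here.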

Additional observations from a re-analysis of the deposited data

Results flagged for a closer look

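The response to MJ at 3 h differed from that at 1 h, by the test of the difference over 48 Col-0 arrays, at 27 probe sets, of which 12 name 1 gene. The difference on the log2 scale was 3.71 for AT3G28270, 3.36 for AT3G28220, 3.16 for AT1G54020, 2.08 for AT2G34810, 2.07 for AT1G30820, 1.74 for AT2G03980 and 1.26 for AT5G43745, all higher at 3 h. AT1G30820 went from -0.50 at 1 h to 1.58 at 3 h (adjusted p of the difference = 0.0065), and AT2G03980 read 5953 and 6050 under MJ and 895.2 and 869.2 under mock at 3 h.

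The difference was -1.31 for AT4G32460, -1.33 for OPCL1, -1.55 for AT5G40340, -1.78 for AT1G61890 and -1.97 for AT5G14700. AT4G32460 was at -0.36 at 1 h and at -1.66 at 3 h. AT5G40340 was at 1.46 at 1 h and -0.10 at 3 h (adjusted p of the 3 h change = 0.94), while AT1G61890 (2.66 and 0.88) and AT5G14700 (3.20 and 1.23) were called rises at both times. Among probe sets without a gene name here, 1 went from 1.29 at 1 h to -2.02 at 3 h (difference -3.31, adjusted p = 0.028).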

How the results depend on the processing

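Main counts were 481 rises and 319 falls, 269 probe sets higher and 40 lower than all other groups, and 18 higher and 9 lower at 3 h than at 1 h. On the deposited scale these were 317, 119, 180, 9, 8 and 0. The last 0 comes from limma, with 263 at an unadjusted p under 0.05, and no other tool was run. With array medians subtracted, 188 fell and 26 lay below all groups. Falls numbered 587 with all 48 Col-0 arrays (rises 607), 688 with all 72 (rises 668), 148 with only the 4 compared, 176 at 2-fold or more and 671 against ACC and BL (rises 714). A pseudocount of 50% of the median signal gave 34 and 19 differences between times, and no filter gave 11 higher. Rises stayed between 431 and 714 in the settings that kept all 4 arrays, except 383 at 2-fold and 317 on the deposited scale. Leaving out 1 array gave 304 to 358 rises, 98 to 212 falls, 174 to 238 higher and 22 to 42 lower than all groups, and 8 to 27 and 2 to 9 differences between times, with a single array assumed to vary like the other groups. PDF1.2 turned to -0.67 (adjusted p = 0.86) without mock replicate 1 and was 2.13 without mock replicate 2. The cause of these shifts was not tested, and the fits with an array left out also hold fewer arrays.

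With the replicate number as a block, 694 rose and 730 fell, 341 and 111 lay apart from all groups, and 70 and 62 differed between times. Since MJ and mock are not taken as pairs, this describes the fit only.

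A count of promoters holding the G-box and related motifs was planned and not run, because no promoter sequence was used here. Dim signals limit the smallest values, and sizes that start from them moved with the pseudocount, as with JAL23 at 4.19 with 50% and 6.92 with 2% of the median signal.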
